A study of Homo sapiens with 18 samples.

Results

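Matrix metalloproteinases (MMP), ADAMTS proteases and their tissue inhibitors (TIMP) were followed in SJSA-1 cells, a human osteosarcoma cell line with amplified MDM2 and CDK4. Every gene row whose symbol was MMP, ADAMTS or TIMP followed by its number was taken, which gave 47 of 23368 rows, with 24 MMP, 19 ADAMTS and 4 TIMP genes. Polyadenylated RNA was sequenced from 18 libraries, 3 in each of 6 groups, all from this line. The study describes the replicates of a group as biological, and p-values measure the spread between these libraries. DMSO was the solvent control. Nutlin, an MDM2 antagonist that raises p53, was given at 20 µM for 6 h. PD30 was PD0332991 (Palbociclib), an inhibitor of the kinases CDK4 and CDK6, at 10 µM for 30 h. PD24 was the same inhibitor for the first 24 h only, with the drug removed for the final 6 h. N+PD30 and N+PD24 combined each of these schedules with Nutlin in the final 6 h. The comparisons ask how these genes responded to either drug, whether removing PD0332991 altered the response, and whether PD0332991 altered the response to Nutlin.

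MMPs are zinc-dependent endopeptidases that cleave collagens, gelatin, proteoglycans and other components of the extracellular matrix. Most are secreted as inactive proenzymes, while the membrane-type MMPs stay at the cell surface. ADAMTS proteases are secreted relatives with thrombospondin repeats that cleave proteoglycans of the aggrecan family, trim procollagens or act on single partners such as von Willebrand factor. TIMPs bind the active site of MMPs, and TIMP3 also inhibits ADAM and ADAMTS proteases. TIMP2 has a second role, since it bridges the proenzyme of MMP2 to the membrane-type protease MMP14, which activates it. In bone and in osteosarcoma these enzymes take part in matrix turnover and invasion. Only mRNA was measured here, not protease activity.

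Library totals ranged from 12704845 to 40231041 counted reads, with a median of 29608936, and N+PD30 replicate 1 was the shallowest. Of the markers of osteoblast lineage, RUNX2 was at 30.2 ± 2.34 CPM (counts per 1000000 counted reads of the library, given as mean ± SD with n = 3 for all group means) in DMSO, COL1A1 at 1728 ± 588 CPM and SPARC at 1429.6 ± 34.6 CPM, while SP7, IBSP and BGLAP were near 0. In every group 6 of the 9 osteoblast markers reached 1 CPM. The leukocyte marker CD3E had no count in DMSO and PTPRC was at 0.0779 ± 0.0554 CPM, although CD14 and CD68 were present. The summed osteoblast markers ranged from 2847 to 4463 CPM in DMSO and from 5346 to 6495 CPM in N+PD24. In N+PD24 COL1A1 was at 2754 ± 743, SPARC at 2719 ± 224, RUNX2 at 19.7 ± 1.61, ALPL at 31.8 ± 11.3 (DMSO 57.5 ± 33.6) and COL1A2 at 341 ± 116 CPM (DMSO 418 ± 161). The summed mesenchymal markers went from 3155 to 3566 CPM in DMSO to 2118 to 2175 CPM in PD30, and the chondrocyte markers from 68.4 to 76.4 CPM in DMSO to 19.2 to 30.3 CPM in N+PD24. In PD30 VIM was at 1679 ± 21.6 CPM (DMSO 2788 ± 192) and CDH2 at 114 ± 8.74 CPM (173 ± 6.48). THY1 was at 204 ± 9.91 CPM (196 ± 17.6) and PDGFRB at 144 ± 5.68 CPM (148 ± 28.2). The chondrocyte fall was that of SOX9, from 71.3 ± 3.91 to 20.5 ± 6.16 CPM. COL2A1, ACAN and MATN1 were at 1.44 ± 0.368, 1.44 ± 0.859 and 0.119 ± 0.0712 CPM (DMSO 1.17 ± 0.322, 0.509 ± 0.0716 and 0.0872 ± 0.0233). The endothelial markers, of which VWF is one, were at 3.45 to 5.46 CPM in DMSO and 13.3 to 18.3 CPM in N+PD24, and the leukocyte markers at 21.6 to 31.9 and 38.6 to 42.9 CPM. The epithelial markers summed to 191 to 264 CPM in DMSO and 108 to 180 CPM in N+PD30. Between these groups KRT18 went from 211 ± 35.8 to 107 ± 31.6 CPM and KRT8 from 11.0 ± 1.41 to 31.1 ± 5.16 CPM. The part of these marker shifts in the results was not tested. As a check of the labels, all 7 p53 targets listed rose in Nutlin over DMSO and all 7 listed cell cycle genes fell in PD30 and in PD24. CPM are relative to the library, and in bulk RNA fewer expressing cells and less RNA per cell cannot be told apart.

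Of the 47 genes, 33 reached a mean of 1 CPM in at least 1 group, namely 13 MMP, 17 ADAMTS and 3 TIMP genes, and 26 did so in DMSO. All 47 had a count in some library. TIMP2 alone held 47.7% of the CPM of all 47 genes in DMSO, followed by MMP2 with 12.7% and TIMP1 with 11.5%. Per kilobase of exon, which allows genes to be compared, TIMP1 and TIMP2 led in DMSO, close to each other, at 170.2 and 164 CPM per kb. MMP2, TIMP3, ADAMTS1 and MMP14 followed at 57.7, 30.8, 23.0 and 19.1 CPM per kb, and no other gene exceeded the level of MMP24, 5.40 CPM per kb. The transcript pool of these families was mainly inhibitor: the summed TIMP level was 1407 ± 40.6 CPM in DMSO, the summed MMP level 436 ± 32.1 CPM and the summed ADAMTS level 293 ± 24.7 CPM. In N+PD24 the corresponding sums were 2444 ± 129, 896 ± 129 and 294 ± 32.8 CPM.

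The other 14 genes stayed below a mean of 1 CPM in every group. They include the collagenases MMP8 and MMP13, stromelysin-2 (MMP10), macrophage elastase (MMP12), gelatinase B (MMP9), matrilysin-2 (MMP26), enamelysin (MMP20), MMP21, MMP27, ADAMTS19, ADAMTS20 and TIMP4. MMP23A and MMP23B, near-identical copies on chromosome 1 between which the counting may have split or dropped reads, never had more than 3 counts in a library. TIMP4 had 3 counts in the DMSO libraries together and 14 in the Nutlin libraries, a ratio of 4.94 per read sequenced with an exact 95% counting interval from 1.38 to 26.8. MMP20 had 1 count in PD24 and 13 in N+PD24 (0, 6 and 7 by library), a ratio of 13.6 with an interval from 2.05 to 579.6. MMP26 had 5 counts in PD30 and 15 in N+PD30, a ratio of 4.76 with an interval from 1.65 to 16.8. These intervals cover counting error only. Most other intervals taken for these low genes included 1, such as that of TIMP4 in PD30 against DMSO (0.493 to 12.9). The ratios above are thus among the most extreme, not typical ones. Of the 14 genes, 13 did not pass the filter on low counts in any comparison. MMP7, MMP20, MMP27, MMP8, MMP10, MMP1, MMP3, MMP12 and MMP13 lie in a row on chromosome 11, from the start of MMP7 at position 102391239 to the end of MMP13 at 102826461 (hg19), and of these 9 genes MMP1, MMP3 and MMP7 alone reached 1 CPM in some group.

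**Figure D1:**
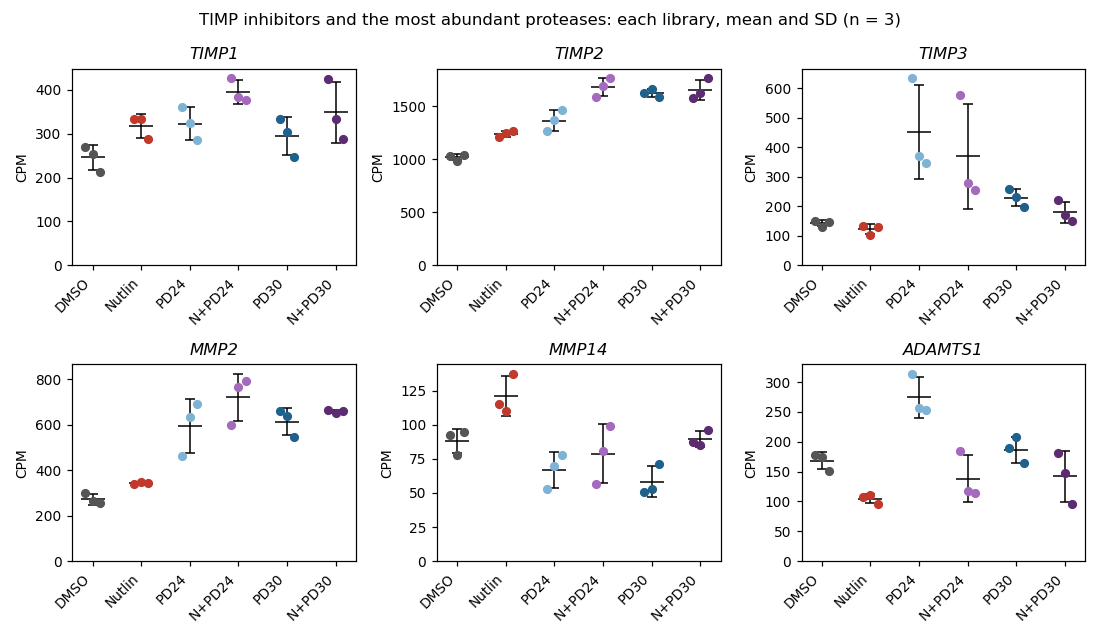
CPM of TIMP1, TIMP2, TIMP3, MMP2, MMP14 and ADAMTS1 on vertical axes that start at 0, for the 3 libraries of each of the 6 groups (points in replicate order), with the mean (long bar) and SD (error bar). All PD24 and PD30 libraries of MMP2 and TIMP3 lie above the DMSO libraries, and TIMP3 is higher in PD24, at 451 ± 159.6 CPM, than in PD30, at 229 ± 29.5 CPM.

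After a filter on low counts, 34 of the 47 genes were tested in at least 1 of 10 comparisons and 32 in all of them. ADAMTS18 and MMP9 passed the filter in some comparisons, ADAMTS18 in those with a group in which it was high, and 13 genes passed in none. A gene was called when its Benjamini-Hochberg adjusted p over all genes tested was below 0.05, by edgeR's quasi-likelihood test for groups with counts and by limma on log2(CPM + 0.5) for comparisons with N+PD24, where the fold changes of low genes are understated. In all, 27 genes were called at least once. ADAMTS4, ADAMTS9, MMP9, MMP11, MMP15, MMP19 and MMP28 were tested but not called in the fits without a replicate block, although ADAMTS9, MMP11, MMP15 and MMP19 passed the threshold in some comparison when the replicate number was a block. The drugs moved much of the transcriptome, so each count is given with the share of all tested genes that was called.

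In Nutlin against DMSO, 13 of 33 tested genes were higher and 3 lower, while 54.6% of all genes were called, 26.6% higher and 28.0% lower. The median log2 fold change of the tested family genes was 0.42, and that of all genes 0.03. In PD30 against DMSO, 5 of 32 were higher and 7 lower, while 48.3% of all genes were called, 22.9% higher and 25.4% lower. In PD24 against DMSO, 10 of 32 were higher and 5 lower, and 38.3% of all genes were called, 17.5% higher and 20.8% lower. Without DMSO replicate 2, this count went from 15 to 9. These 3 comparisons share the DMSO libraries, and those of N+PD30 and N+PD24 with Nutlin share the Nutlin libraries. Between PD30 and PD24, ADAMTS1, ADAMTS16, MMP1 and TIMP3 were called among 32 genes, all lower in PD30, and 25.2% of all genes were called, 12.2% higher and 12.9% lower. With the replicate number as a block, 7 were called, 6 of them lower, and 40.3% of all genes.

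In N+PD30 against Nutlin, 3 of 33 were higher and 12 lower, while 49.0% of all genes were called, 24.3% higher and 24.7% lower. In N+PD24 against Nutlin, 10 of 34 were higher and 5 lower, or 17 and 6 with the replicate block, and 34.4% of all genes were called, 17.1% higher and 17.3% lower, or 53% with the block. In N+PD30 against PD30, 4 of 32 were higher and 1 lower, or 7 and 2 with the replicate block, and 14.5% of all genes were called, 8.84% higher and 5.64% lower, or 29.0% with the block. This count of 5 rested on single libraries, since 1 gene was called without PD30 replicate 1 and 2 without PD30 replicate 2 or N+PD30 replicate 2. In N+PD24 against PD24, 9 of 33 were higher and 2 lower, while 37.1% of all genes were called, 17.0% higher and 20.1% lower, and the count went from 11 to 7 without N+PD24 replicate 2. With the block 16 were called and 52.4% of all genes. The share of family genes called was above that of all genes in PD24 against DMSO, N+PD24 against Nutlin and N+PD30 against PD30 and below it in the other 5 of these comparisons, a difference that was not tested. With the block it was above that of all genes in N+PD24 against Nutlin alone among the 4 comparisons whose replicate numbers pair the libraries. In those 4 comparisons the block lost no call, including the calls given below as lost without a library.

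Changes of more than 1 on the log2 scale were fewer. With that size required, 6 family genes were called in Nutlin against DMSO (all genes, 20.8%), 6 in PD30 against DMSO (15.2%) and 7 in PD24 against DMSO (12.6%). There were 3 in PD30 against PD24 (all genes, 7.49%), 6 in N+PD30 against Nutlin (22.3%), 8 in N+PD24 against Nutlin (8.88%), 2 in N+PD30 against PD30 (3.68%) and 3 in N+PD24 against PD24 (11.3%). 

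**Figure D2:**
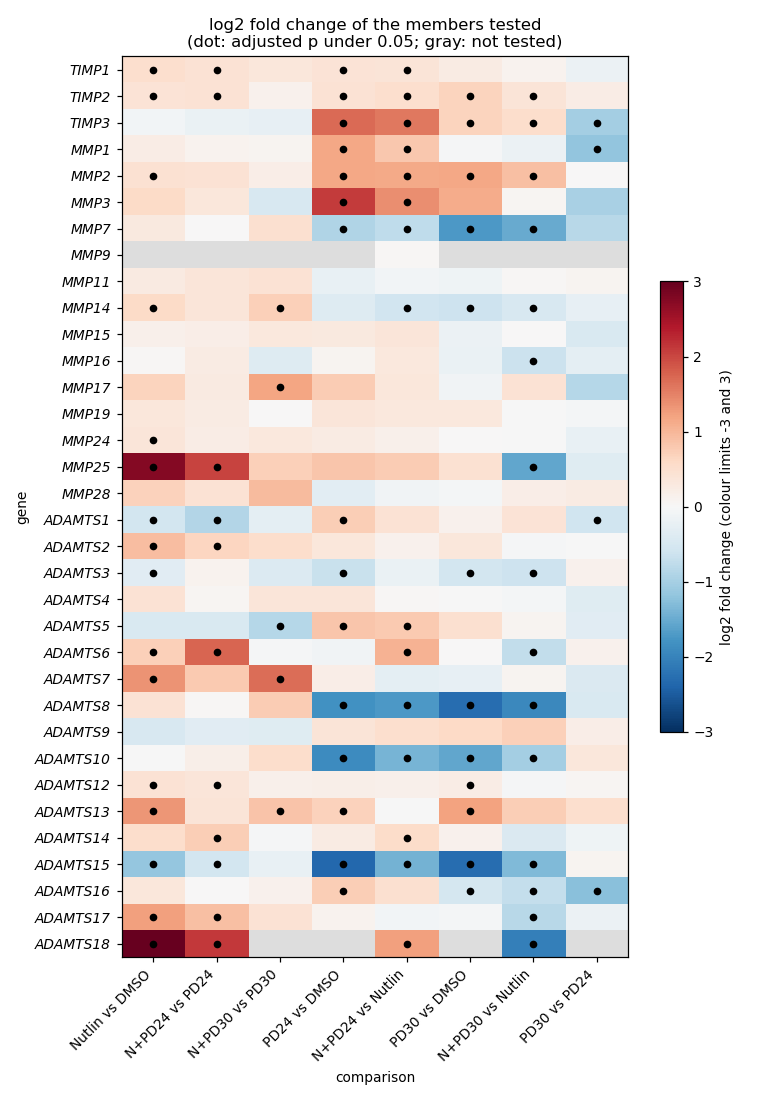
The log2 fold change (colour, red for higher and blue for lower in the group named first) of each of the 34 genes tested (rows) in 8 comparisons (columns), with a dot for an adjusted p under 0.05 and gray where the gene was not tested. In the 4 columns that compare a PD0332991 group with DMSO or Nutlin, ADAMTS8, ADAMTS10 and ADAMTS15 are blue and MMP2 and TIMP3 red, all with dots, and MMP25 and ADAMTS18 are darkest in Nutlin against DMSO. Colours end at 3 in either direction.

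The inhibitors were the most abundant of these transcripts, and each of the 3 expressed TIMPs rose with at least 1 drug schedule. TIMP2 lies on chromosome 17 (chr17:76849059-76921469, minus strand, hg19) and shares exonic sequence with CEP295NL on its strand. TIMP2 was at 1031, 986 and 1042 CPM in the 3 DMSO libraries and at 1206, 1246 and 1262 CPM with Nutlin. TIMP2 reached 1262, 1371 and 1460.1 CPM in PD24 and 1622, 1663 and 1585 CPM in PD30. All 9 of these treated libraries were above all DMSO libraries. The log2 fold change over DMSO (± SE throughout) was 0.41 ± 0.08, adjusted p = 0.00189 in Nutlin, 0.44 ± 0.08, adjusted p = 0.00328 in PD24 and 0.66 ± 0.07, adjusted p = 4.67e-05 in PD30. With both drugs TIMP2 read 1588, 1686 and 1763 CPM in N+PD24 and 1577, 1625 and 1763 CPM in N+PD30. These values were above those of Nutlin alone by 0.51 ± 0.10, adjusted p = 0.00397 and by 0.38 ± 0.11, adjusted p = 0.0168, in log2. The second call was lost without Nutlin replicate 2 or N+PD30 replicate 2 at an adjusted p of up to 0.0622. N+PD24 was also above PD24 (0.44 ± 0.12, adjusted p = 0.0127), a call that was lost without PD24 replicate 1 or N+PD24 replicate 2 at an adjusted p of up to 0.0653 and with no filter on low counts at 0.0579, whereas N+PD30 and PD30 overlapped (0.12 ± 0.09, adjusted p = 0.356). TIMP2 in PD30 exceeded PD24 in every library but missed the threshold (0.21 ± 0.09, adjusted p = 0.116), and passed it with the replicate block (0.0376).

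TIMP3, the inhibitor that binds to the matrix (chr22:33197691-33259028, plus strand, hg19), showed the largest fold change of the TIMPs and the one call between the PD0332991 schedules. TIMP3 was at 150.5, 130.0 and 145 CPM in DMSO and at 134, 102 and 129.8 CPM in Nutlin, which overlapped (-0.09 ± 0.11, adjusted p = 0.502). TIMP3 rose to 258, 229 and 199 CPM in PD30 and to 635, 371 and 347 CPM in PD24, with replicate 1 highest in both groups. Every PD24 library was above every PD30 library, and every PD30 library above every DMSO library. The log2 fold change over DMSO was 1.69 ± 0.21, adjusted p = 0.000363 in PD24, or 3.23-fold, and 0.67 ± 0.11, adjusted p = 0.000662 in PD30, or 1.60-fold. PD30 was lower than PD24 by 2.02-fold (log2 -1.01 ± 0.22, adjusted p = 0.00939). With Nutlin added, TIMP3 read 575, 278 and 255 CPM in N+PD24 and 219.6, 169 and 149 CPM in N+PD30. Both were above Nutlin alone, by 1.58 ± 0.28, adjusted p = 0.00222 and by 0.52 ± 0.17, adjusted p = 0.0285 in log2, and the second call was lost without Nutlin replicate 2 or 3 or N+PD30 replicate 1 at an adjusted p of up to 0.120. Neither differed detectably from the same PD0332991 schedule without Nutlin (-0.19 ± 0.31, adjusted p = 0.658 for N+PD24 and -0.25 ± 0.17, adjusted p = 0.336 for N+PD30).

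TIMP1, on the X chromosome (chrX:47441807-47446188, plus strand, hg19), was at 269.8, 255 and 214 CPM in DMSO, with replicate 3 lowest. TIMP1 rose in Nutlin to 334, 333 and 287 CPM (0.50 ± 0.12, adjusted p = 0.00474) and in PD24 to 360.1, 325 and 285 CPM (0.42 ± 0.13, adjusted p = 0.0280), without overlap with DMSO. The PD24 call was lost without DMSO replicate 2 or 3 or PD24 replicate 1 or 2 at an adjusted p of up to 0.105. PD30, at 333, 304 and 247 CPM, overlapped DMSO (0.24 ± 0.13, adjusted p = 0.144). TIMP1 was highest in N+PD24, at 428, 383 and 377 CPM, above Nutlin (0.39 ± 0.12, adjusted p = 0.0321) and above PD24 (0.44 ± 0.13, adjusted p = 0.0219). The call against Nutlin was lost without Nutlin replicate 1, 2 or 3 or N+PD24 replicate 1 or 2 at an adjusted p of up to 0.116 and with no filter on low counts at 0.0817, and that against PD24 without PD24 replicate 2 or 3 or N+PD24 replicate 1 or 2 at an adjusted p of up to 0.0796 and with scaling by total counts at 0.0725. With the replicate block the adjusted p was 0.000331 against Nutlin and 0.000897 against PD24. N+PD30 gave 424, 333 and 288 CPM and overlapped both Nutlin (0.10 ± 0.17, adjusted p = 0.658) and PD30 (0.34 ± 0.18, adjusted p = 0.207, or 0.0351 with the replicate block).

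For 27 of the 47 genes the RefSeq table of promoters (GRCh38.p14) held a sequence, of which the 250 bases before the transcription start were searched on both strands. The promoters of 3 genes that moved with PD0332991 are shown, 5′ to 3′ on the strand of the gene and with motif matches in capitals: TIMP3, which rose, MMP14, which fell in PD30, and MMP7, which fell in both schedules. The capitals mark GC boxes (GGGCGG) in TIMP3 and MMP14 and a site for AP-1 (TGANTCA), the dimer of FOS and JUN proteins, in MMP7.
TIMP3, chr22:32801455-32801704, plus strand: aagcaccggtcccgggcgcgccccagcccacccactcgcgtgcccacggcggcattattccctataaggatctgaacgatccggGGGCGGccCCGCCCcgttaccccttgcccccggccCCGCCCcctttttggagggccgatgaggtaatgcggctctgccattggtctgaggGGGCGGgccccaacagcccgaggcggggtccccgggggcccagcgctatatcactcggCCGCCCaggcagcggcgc
MMP14, chr14:22836335-22836584, plus strand: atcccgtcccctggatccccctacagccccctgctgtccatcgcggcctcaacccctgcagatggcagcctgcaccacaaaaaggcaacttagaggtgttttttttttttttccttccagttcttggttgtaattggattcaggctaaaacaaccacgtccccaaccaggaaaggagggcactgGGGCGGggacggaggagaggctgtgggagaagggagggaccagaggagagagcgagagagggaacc
MMP7, chr11:102530748-102530997, minus strand: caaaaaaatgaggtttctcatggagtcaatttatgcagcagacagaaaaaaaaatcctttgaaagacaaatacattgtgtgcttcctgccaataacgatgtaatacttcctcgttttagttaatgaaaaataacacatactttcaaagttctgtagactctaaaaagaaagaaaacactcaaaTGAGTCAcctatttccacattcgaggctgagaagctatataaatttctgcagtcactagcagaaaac
Counting both promoters listed for ADAMTS10, a GC box was found in 19 of 28 promoters and in 42.6% of the 35116 promoters in the table. TIMP3 held 5 of them. An AP-1 match was found in 4, those of MMP7, MMP10, MMP20 and ADAMTS12, and in 6.57% of all promoters. It stood 67 bases before the start in both MMP7 and MMP10, a member of the same chromosome 11 cluster. The E2F motif TTTNNCGC had no match in these windows and one in 5.92% of all promoters. A match of letters is a description of the sequence.

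MMP2 (gelatinase A) and MMP14, which activates it at the cell surface, were the most abundant MMPs and responded differently to PD0332991. MMP2 (chr16:55423612-55540603, plus strand, hg19) shares exonic sequence with an unnamed gene on its strand. It was at 298, 263 and 254 CPM in DMSO and rose to 460.5, 632 and 689 CPM in PD24 and 659.6, 636 and 544 CPM in PD30, above every DMSO library. The increase was 2.22-fold in PD24 (log2 1.15 ± 0.15, adjusted p = 0.000398) and 2.23-fold in PD30 (1.16 ± 0.10, adjusted p = 1.48e-05), and the schedules overlapped (0.01 ± 0.15, adjusted p = 0.967). Nutlin alone gave a smaller rise to 340.0, 347 and 344 CPM (0.47 ± 0.09, adjusted p = 0.00163). With both drugs MMP2 read 600.3, 764 and 793 CPM in N+PD24 and 663, 652 and 660.4 CPM in N+PD30. These were above Nutlin by 1.13 ± 0.11, adjusted p = 6.70e-05 and by 0.90 ± 0.11, adjusted p = 9.74e-05 in log2. Against the same PD0332991 schedule alone the values overlapped, with 0.43 ± 0.16, adjusted p = 0.0622 for N+PD24, or 0.00174 with the replicate block, and 0.20 ± 0.10, adjusted p = 0.213 for N+PD30.

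MMP14 (chr14:23305769-23318250, plus strand, hg19) rose with Nutlin from 88.4 ± 8.90 to 121 ± 14.6 CPM (0.58 ± 0.11, adjusted p = 0.00118) and fell in PD30 to 58.4 ± 11.5 CPM (-0.61 ± 0.13, adjusted p = 0.00439), in both cases without overlap. PD24, at 67.0 ± 13.0 CPM, missed the threshold against DMSO (-0.38 ± 0.15, adjusted p = 0.0710). N+PD30, at 89.5 ± 5.77 CPM, stood between PD30 (0.71 ± 0.14, adjusted p = 0.0158) and Nutlin (-0.47 ± 0.12, adjusted p = 0.00703), and the call against PD30 was lost without PD30 replicate 1 or 2 or N+PD30 replicate 2 at an adjusted p of up to 0.0742. N+PD24, at 78.9 ± 21.4 CPM, was lower than Nutlin (-0.57 ± 0.17, adjusted p = 0.0254, or 2.64e-05 with the replicate block), a call lost without Nutlin replicate 3 or N+PD24 replicate 2 at an adjusted p of up to 0.0766. Of this activation set, MMP2 and TIMP2 were therefore higher and MMP14 lower in PD30 than in DMSO, while all 3 were higher in Nutlin.

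The collagenase MMP1 and stromelysin-1 (MMP3), adjacent in the chromosome 11 cluster, were scarce in DMSO and higher after PD0332991 had been removed. MMP1 was at 0.788, 0.624 and 1.20 CPM in DMSO, from 26, 18 and 37 counts, and at 2.10, 1.18 and 2.41 CPM in PD24, with PD24 replicate 2 within the DMSO range. The log2 fold change was 1.16 ± 0.32, adjusted p = 0.0201, and the call was lost without DMSO replicate 1 or 2 or PD24 replicate 1 or 3 at an adjusted p of up to 0.0808. PD30, at 0.964, 0.918 and 0.710 CPM, was lower than PD24 in every library (-1.19 ± 0.29, adjusted p = 0.0173, lost without PD24 replicate 1 or PD30 replicate 3 at an adjusted p of up to 0.0667) and overlapped DMSO (-0.03 ± 0.29, adjusted p = 0.942). MMP3 was at 0.757, 0.659 and 0.259 CPM in DMSO and rose to 4.01, 1.94 and 1.22 CPM in PD24, highest in replicate 1 and above every DMSO library (2.10 ± 0.51, adjusted p = 0.0111, or 1.48 in log2 without PD24 replicate 1). PD30, at 2.10, 0.779 and 0.880 CPM, overlapped PD24 (-0.98 ± 0.49, adjusted p = 0.171, or 0.0106 with the replicate block). For MMP3 every PD30 library was also above every DMSO library, without passing the threshold (1.11 ± 0.48, adjusted p = 0.0807). Nutlin alone left both genes within overlapping ranges, at 1.47, 0.566 and 0.737 CPM for MMP1 (0.22 ± 0.39, adjusted p = 0.649) and 1.21, 0.599 and 0.479 CPM for MMP3 (0.59 ± 0.45, adjusted p = 0.294).

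In N+PD24 the same pair stood above Nutlin alone. MMP1 read 2.17, 1.16 and 2.27 CPM and was higher by 0.80 ± 0.27, adjusted p = 0.0455 in log2, with N+PD24 replicate 2 below Nutlin replicate 1. That call was lost without Nutlin replicate 2 or 3 or N+PD24 replicate 1 or 3 at an adjusted p of up to 0.171, with no filter on low counts at 0.0809, with scaling by total counts at 0.0678 and with edgeR on the recovered reads at 0.0592. With the replicate block the adjusted p of MMP1 was 0.000554. MMP3 read 4.39, 2.08 and 1.91 CPM and was higher by 1.40 ± 0.31, adjusted p = 0.00702 without overlap. In N+PD30 they were at 1.10, 0.806 and 0.726 CPM for MMP1 and 1.02, 0.907 and 0.581 CPM for MMP3, within the range of Nutlin or close to it (-0.16 ± 0.40, adjusted p = 0.755 for MMP1 and 0.06 ± 0.41, adjusted p = 0.917 for MMP3). Exons of WTAPP1 on the opposite strand overlap both genes. The authors counted reads with a reverse-strand setting, but the sources used here do not say that the library kit keeps the strand.

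MMP7 (matrilysin), the first gene of the cluster (chr11:102391239-102401481, minus strand, hg19), moved the opposite way. MMP7 was at 1.30, 1.32 and 1.49 CPM in DMSO, from 43, 38 and 46 counts, and fell to 0.276, 0.584 and 0.369 CPM in PD30 (-1.72 ± 0.29, adjusted p = 0.000969). PD24, at 0.883, 0.801 and 0.522 CPM, was also below every DMSO library (-0.90 ± 0.27, adjusted p = 0.0260), and that call was lost without DMSO replicate 1, 2 or 3 or PD24 replicate 3 at an adjusted p of up to 0.0741 and with DESeq2 at 0.0534. Nutlin left MMP7 at 1.57, 1.67 and 1.36 CPM (0.29 ± 0.21, adjusted p = 0.258). MMP7 was lower than in Nutlin in N+PD30, at 0.708, 0.470 and 0.533 CPM (-1.52 ± 0.30, adjusted p = 0.00163), and in N+PD24, at 0.451, 0.785 and 0.794 CPM (-0.76 ± 0.18, adjusted p = 0.00946), with no overlap in either case. The N+PD24 value is on the log2(CPM + 0.5) scale, which understates changes of low genes, so the sizes cannot be ranked.

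**Figure D3:**
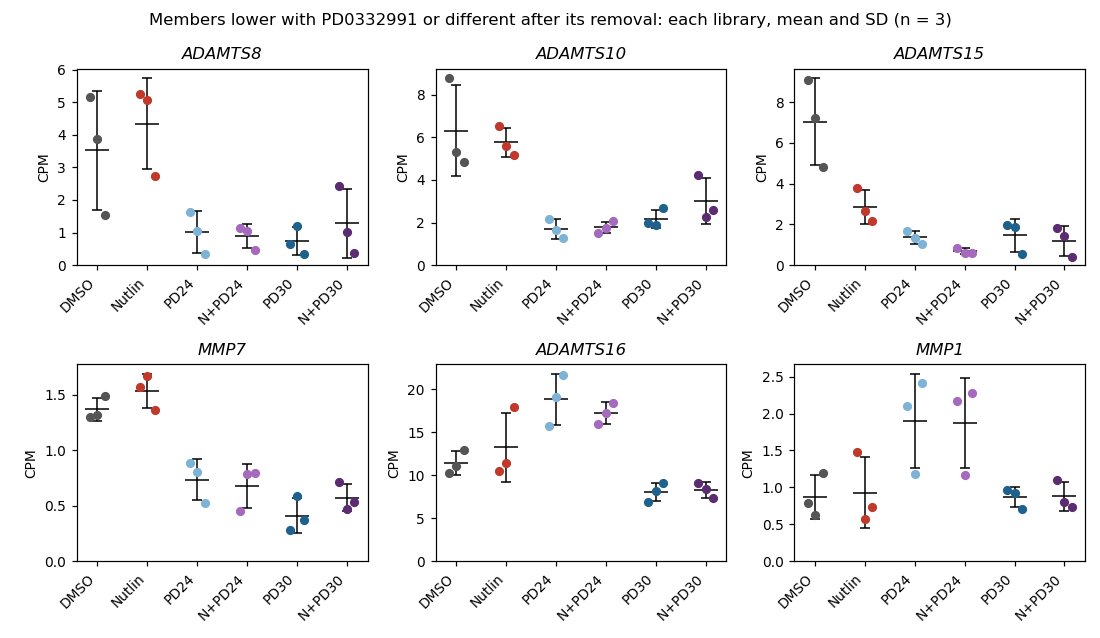
CPM of ADAMTS8, ADAMTS10, ADAMTS15, MMP7, ADAMTS16 and MMP1 on vertical axes that start at 0, for the 3 libraries of each of the 6 groups (points in replicate order), with the mean (long bar) and SD (error bar). ADAMTS10, ADAMTS15 and MMP7 lie lower in all 4 groups given PD0332991 than in DMSO, while ADAMTS16 is at 18.9 ± 2.97 CPM in PD24 and 8.04 ± 1.08 CPM in PD30.

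Among the other membrane-type enzymes, MMP17 and MMP25, which are held in the membrane by a lipid anchor, and the transmembrane MMP24 were each higher in at least 1 group with Nutlin than in its control. MMP25 (chr16:3096063-3110727, plus strand, hg19) was at 0.545, 0.381 and 0.388 CPM in DMSO, from 18, 11 and 12 counts. With Nutlin it rose to 1.51, 1.96 and 4.83 CPM, highest in replicate 3 and above every DMSO library, a 6.70-fold increase (log2 2.74 ± 0.45, adjusted p = 0.000598). Without Nutlin replicate 3 the log2 fold change was 2.11. PD24 and PD30 were at 0.951, 0.843 and 0.572 CPM and 0.482, 0.389 and 0.965 CPM, and neither was called against DMSO (0.83 ± 0.32, adjusted p = 0.0656 and 0.46 ± 0.39, adjusted p = 0.357). In N+PD24 MMP25 reached 3.57, 4.30 and 5.34 CPM, above every PD24 library (2.03 ± 0.19, adjusted p = 4.11e-05, or 2.64 in log2 by edgeR on the recovered reads). Against Nutlin the groups overlapped (0.77 ± 0.31, adjusted p = 0.0835, or 0.000663 with the replicate block). In N+PD30 MMP25 was at 1.10, 0.806 and 1.02 CPM, below every Nutlin library (-1.56 ± 0.43, adjusted p = 0.0112, or -0.93 in log2 without Nutlin replicate 3), and it overlapped PD30 (0.72 ± 0.38, adjusted p = 0.222). The difference between the Nutlin responses with and without PD30, an interaction, was -1.98 ± 0.66 in log2 and missed the threshold (adjusted p = 0.0507, or 0.0251 with the replicate block, where 25.6% of all genes were called). The block lacks a basis there, since the replicate numbers did not pair the Nutlin and DMSO libraries (lowest r -0.278). MMP25-AS1 overlaps MMP25 on the opposite strand.

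MMP17 was at 2.09, 1.35 and 0.485 CPM in DMSO and 0.918, 2.50 and 2.32 CPM in Nutlin, which overlapped (0.66 ± 0.48, adjusted p = 0.265). MMP17 was higher in N+PD30, at 2.91, 2.72 and 2.37 CPM, than in PD30, at 1.03, 1.17 and 1.50 CPM (1.19 ± 0.22, adjusted p = 0.0134), a call lost without PD30 replicate 1 or N+PD30 replicate 2 at an adjusted p of up to 0.0637. PD24, at 1.49, 3.92 and 1.27 CPM, and N+PD24, at 0.984, 3.03 and 3.57 CPM, were spread widely and overlapped (0.26 ± 0.40, adjusted p = 0.640). MMP24 was 23.6 ± 2.70 CPM in DMSO and 27.7 ± 1.97 CPM in Nutlin (0.35 ± 0.12, adjusted p = 0.0262), with overlapping libraries, and the call was lost without DMSO replicate 2 or 3 or Nutlin replicate 1 or 3 at an adjusted p of up to 0.0992 and with scaling by total counts at 0.131. MMP16 was lower in N+PD30, at 7.33 ± 0.405 CPM, than in Nutlin, at 11.0 ± 1.77 CPM (-0.64 ± 0.18, adjusted p = 0.0134), a call lost without Nutlin replicate 1 or N+PD30 replicate 2 at an adjusted p of up to 0.0536. MMP15, with group means between 3.82 and 5.53 CPM, was not called without the replicate block. MMP24OS and an unnamed gene overlap exons of MMP24 and MMP16 on the opposite strand.

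The ADAMTS proteases that cleave aggrecan and versican (ADAMTS1, ADAMTS4, ADAMTS5, ADAMTS8, ADAMTS9, ADAMTS15 and ADAMTS20) split in their response to PD0332991. ADAMTS8 and ADAMTS15, neighbours on chromosome 11, fell. ADAMTS15 (chr11:130318540-130346540, plus strand, hg19) was at 9.09, 7.21 and 4.82 CPM in DMSO and fell to 1.70, 1.35 and 1.04 CPM in PD24 and 1.96, 1.89 and 0.539 CPM in PD30, all below every DMSO library. It was 5.12-fold lower in PD24 (log2 -2.36 ± 0.29, adjusted p = 0.000293) and 4.89-fold lower in PD30 (-2.29 ± 0.40, adjusted p = 0.00131). ADAMTS15 also fell with Nutlin, to 3.77, 2.63 and 2.17 CPM (-1.17 ± 0.27, adjusted p = 0.00477). With both drugs it was lowest, at 0.861, 0.596 and 0.614 CPM in N+PD24 and 1.81, 1.41 and 0.387 CPM in N+PD30. N+PD24 was below Nutlin (-1.42 ± 0.21, adjusted p = 0.000788) and below PD24 (-0.55 ± 0.19, adjusted p = 0.0449), the latter call being lost without PD24 replicate 1 or 2 or N+PD24 replicate 2 or 3 at an adjusted p of up to 0.153, with a pseudocount of 0.1 CPM at 0.0514 and with edgeR on the recovered reads at 0.0505. Both N+PD24 values are on the log2(CPM + 0.5) scale, which understates changes of low genes. N+PD30 was below Nutlin (-1.33 ± 0.43, adjusted p = 0.0249, lost without Nutlin replicate 1 at an adjusted p of up to 0.0939) and overlapped PD30 (-0.22 ± 0.59, adjusted p = 0.821).

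ADAMTS8 (chr11:130274818-130298504, minus strand, hg19) varied more between replicates, with 5.15, 3.88 and 1.55 CPM in DMSO, replicate 3 being lowest here and in every other group. It fell in PD30 to 0.654, 1.20 and 0.341 CPM (-2.27 ± 0.50, adjusted p = 0.00459) without overlap, and in PD24 to 1.63, 1.05 and 0.348 CPM (-1.82 ± 0.55, adjusted p = 0.0285), where the groups overlapped and the call was lost without DMSO replicate 1 or 2 or PD24 replicate 2 or 3 at an adjusted p of up to 0.0928. Nutlin left ADAMTS8 at 5.24, 5.06 and 2.73 CPM, within overlapping ranges (0.43 ± 0.39, adjusted p = 0.365). Against these, N+PD30 at 2.44, 1.01 and 0.387 CPM and N+PD24 at 1.15, 1.06 and 0.469 CPM were lower (-1.94 ± 0.49, adjusted p = 0.00749 and -1.73 ± 0.29, adjusted p = 0.00150). The second value is on the log2(CPM + 0.5) scale, which understates changes of low genes, so the sizes cannot be ranked. Mean ADAMTS8 was 1.28 CPM in N+PD30 and 0.891 CPM in N+PD24. Single libraries moved these values, to -2.87 in PD30 against DMSO without PD30 replicate 2, -2.42 in PD24 against DMSO without PD24 replicate 1 and -2.62 in N+PD30 against Nutlin without N+PD30 replicate 1.

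ADAMTS1, the most abundant ADAMTS transcript, and ADAMTS5 were higher in PD24. ADAMTS1 rose from 168 ± 14.5 CPM in DMSO to 275 ± 34.0 CPM in PD24 (0.73 ± 0.12, adjusted p = 0.00128), and PD30, at 187 ± 21.8 CPM, was lower than PD24 (-0.59 ± 0.13, adjusted p = 0.0102). With Nutlin ADAMTS1 fell to 105 ± 7.55 CPM (-0.55 ± 0.11, adjusted p = 0.00148), and N+PD24, at 138 ± 39.5 CPM, was below PD24 (-0.87 ± 0.19, adjusted p = 0.00525). None of these pairs of groups overlapped. In PD30 ADAMTS1 overlapped DMSO (0.14 ± 0.11, adjusted p = 0.329). ADAMTS5 was at 6.72 ± 2.30 CPM in DMSO and 11.8 ± 3.21 CPM in PD24 (0.83 ± 0.26, adjusted p = 0.0337), with overlap, and the call was lost without DMSO replicate 2 or 3 or PD24 replicate 1 at an adjusted p of up to 0.141. It was higher in N+PD24, at 7.53 ± 1.40 CPM, than in Nutlin, at 4.47 ± 1.41 CPM (0.78 ± 0.22, adjusted p = 0.0226, or 3.77e-05 with the replicate block, lost without Nutlin replicate 2 or 3 or N+PD24 replicate 1 at an adjusted p of up to 0.0988 and with no filter on low counts at 0.0524). It was lower in N+PD30, at 4.95 ± 0.829 CPM, than in PD30, at 9.46 ± 2.35 CPM (-0.85 ± 0.22, adjusted p = 0.0357, lost without PD30 replicate 1 or 2 or N+PD30 replicate 2 at an adjusted p of up to 0.136). In PD30 ADAMTS5 overlapped DMSO (0.47 ± 0.25, adjusted p = 0.153). ADAMTS4 and ADAMTS9 were tested and not called without the replicate block, with group means up to 1.17 CPM and 7.54 CPM.

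ADAMTS10, ADAMTS6 and ADAMTS17 act on or bind fibrillin microfibrils and showed 3 different patterns. ADAMTS10 (chr19:8645124-8675620, minus strand, hg19) followed PD0332991. It was at 8.79, 5.31 and 4.85 CPM in DMSO and fell to 2.17, 1.64 and 1.27 CPM in PD24 (-1.89 ± 0.29, adjusted p = 0.00117) and 1.998, 1.86 and 2.67 CPM in PD30 (-1.55 ± 0.26, adjusted p = 0.000931), below every DMSO library. Nutlin, at 6.52, 5.60 and 5.16 CPM, overlapped DMSO (-0.01 ± 0.23, adjusted p = 0.985). N+PD24 and N+PD30, at 1.52, 1.73 and 2.06 CPM and 4.25, 2.25 and 2.57 CPM, were below every Nutlin library (-1.40 ± 0.16, adjusted p = 0.000188 and -1.02 ± 0.26, adjusted p = 0.00809).

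ADAMTS17 (chr15:100511642-100882210, minus strand, hg19), which is overlapped by an unnamed gene on the opposite strand, followed Nutlin. It rose from 2.58, 2.81 and 2.97 CPM in DMSO to 4.78, 5.83 and 7.37 CPM in Nutlin (1.23 ± 0.19, adjusted p = 0.000397). PD24, at 2.48, 2.70 and 3.68 CPM, and PD30, at 2.76, 2.50 and 2.87 CPM, overlapped DMSO (0.11 ± 0.20, adjusted p = 0.684 and -0.06 ± 0.16, adjusted p = 0.800). In N+PD24 it was at 4.84, 5.47 and 5.71 CPM, above PD24 (0.90 ± 0.18, adjusted p = 0.00306). In N+PD30 it was at 3.38, 3.36 and 3.63 CPM, below Nutlin (-0.83 ± 0.20, adjusted p = 0.00625), and above every PD30 library without passing the threshold (0.44 ± 0.16, adjusted p = 0.0974). The Nutlin response with PD30 minus that without it was -0.73 ± 0.24 in log2 (adjusted p = 0.0434), and ADAMTS17 was the single gene called among 33 tested for this interaction, where 19.8% of all genes were called, 12.8% higher and 7.03% lower, and 10.2% called with a log2 difference over 1. That call was lost without DMSO replicate 1, 2 or 3, Nutlin replicate 2 or 3, PD30 replicate 1, 2 or 3 or N+PD30 replicate 1, 2 or 3 at an adjusted p of up to 0.0973, with no filter on low counts at 0.0635 and with scaling by total counts at 0.0506.

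ADAMTS6 (chr5:64444565-64777747, minus strand, hg19) was highest in N+PD24. It was at 4.39, 3.50 and 3.14 CPM in DMSO and rose in Nutlin to 6.03, 4.43 and 6.26 CPM (0.72 ± 0.19, adjusted p = 0.00968). PD24 and PD30, at 4.31, 2.70 and 3.13 CPM and 4.75, 3.23 and 3.41 CPM, overlapped DMSO. N+PD24 reached 12.3, 10.0 and 11.7 CPM, 3.38-fold above PD24 (1.76 ± 0.19, adjusted p = 8.44e-05) and 2.06-fold above Nutlin (1.04 ± 0.16, adjusted p = 0.00112), both ratios being taken on the log2(CPM + 0.5) scale. N+PD30, at 4.17, 3.12 and 3.15 CPM, was below Nutlin (-0.73 ± 0.22, adjusted p = 0.0169), a call lost without Nutlin replicate 1 or 3 or N+PD30 replicate 2 at an adjusted p of up to 0.0761, and overlapped PD30 (-0.04 ± 0.22, adjusted p = 0.910). The interaction of Nutlin with PD24 was 1.12 ± 0.26 in log2 and missed the threshold (adjusted p = 0.0528, or 0.0104 with the replicate block, where 2.64% of all genes were called), and that with PD30 was -0.71 ± 0.29, adjusted p = 0.105, or 0.0298 with the replicate block. The block lacks a basis in both, since the replicate numbers did not pair the Nutlin and DMSO libraries.

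ADAMTS18, an enzyme with roles in eye and vessel development, was near the limit of detection in all groups without Nutlin. It had 2, 1 and 4 counts in DMSO, 1, 4 and 3 in PD24 and 4, 2 and 2 in PD30, or at most 0.169 CPM. With Nutlin ADAMTS18 had 17, 12 and 22 counts, or 0.557, 0.400 and 0.811 CPM, above every DMSO library (3.01 ± 0.50, adjusted p = 0.000662, and log2 3.59 without DMSO replicate 3). It passed the filter on low counts through the groups in which it was high, so its tests are conditioned on that level. In N+PD24 the reads recovered from the deposited values were 60, 49 and 62, or 2.46, 1.33 and 2.24 CPM. This was above Nutlin (1.24 ± 0.23, adjusted p = 0.00247) and above PD24 (2.12 ± 0.21, adjusted p = 5.53e-05) in every library. The size depends on the pseudocount, since the log2 fold change over PD24 was 1.50 with 1 CPM and 3.57 with 0.1 CPM. By edgeR on the recovered reads it was 4.60 over PD24 and 1.83 over Nutlin. N+PD30 had 0, 5 and 4 counts, below every Nutlin library (-2.06 ± 0.55, adjusted p = 0.00957). ADAMTS18 was the single gene called among 34 for the interaction of Nutlin with PD24 (1.21 ± 0.28, adjusted p = 0.0470), where 1.44% of all genes were called, 0.791% higher and 0.650% lower, and 1.06% called with a log2 difference over 1. The call was lost without DMSO replicate 1, 2 or 3, Nutlin replicate 1 or 2, PD24 replicate 1, 2 or 3 or N+PD24 replicate 1 or 3 at an adjusted p of up to 0.149, with no filter on low counts at 0.0522, with scaling by total counts at 0.0685, with a pseudocount of 0.1 CPM at 0.187 and with edgeR on the recovered reads at 0.565. The interaction with PD30 was -2.10 ± 0.97, adjusted p = 0.147. An unnamed gene overlaps ADAMTS18 on the opposite strand.

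**Figure D4:**
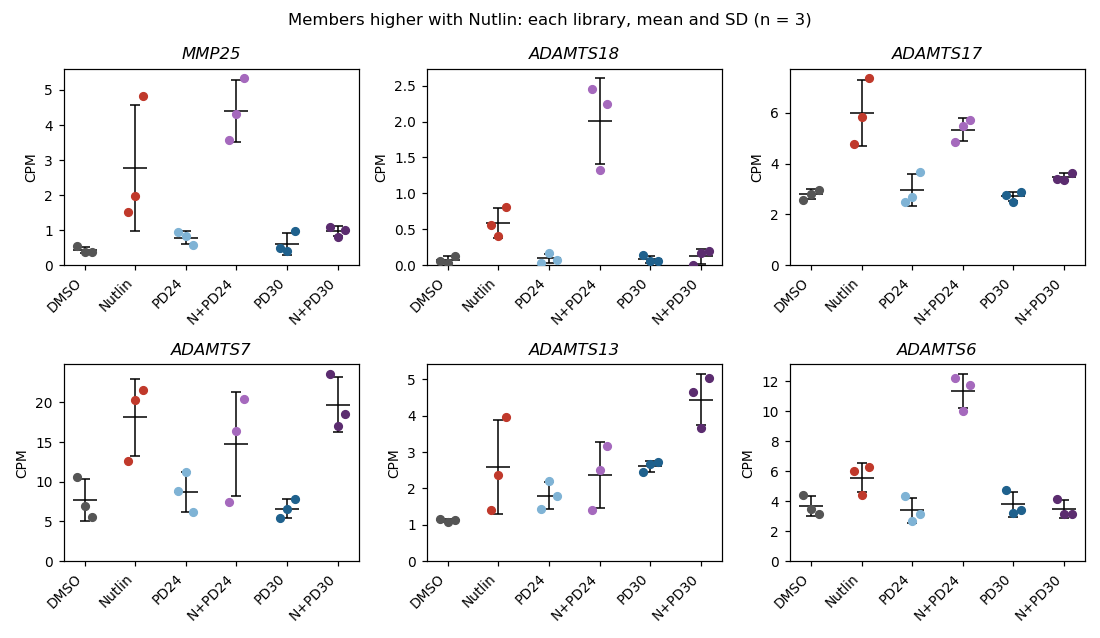
CPM of MMP25, ADAMTS18, ADAMTS17, ADAMTS7, ADAMTS13 and ADAMTS6 on vertical axes that start at 0, for the 3 libraries of each of the 6 groups (points in replicate order), with the mean (long bar) and SD (error bar). All Nutlin libraries lie above all DMSO libraries for each gene, and ADAMTS6 and ADAMTS18 are highest in N+PD24, at 11.3 ± 1.16 and 2.01 ± 0.601 CPM.

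ADAMTS7 and ADAMTS12, which degrade cartilage oligomeric matrix protein, both rose with Nutlin. ADAMTS7 (chr15:79051548-79103806, minus strand, hg19) was at 10.6, 6.97 and 5.53 CPM in DMSO and 12.6, 20.3 and 21.6 CPM in Nutlin (1.36 ± 0.26, adjusted p = 0.00152). Unlike the DMSO libraries, in which replicate 1 was highest, replicate 1 was lowest in Nutlin. ADAMTS7 in PD30, at 5.41, 6.56 and 7.81 CPM, overlapped DMSO, and N+PD30 rose to 23.6, 17.0 and 18.5 CPM, 3.18-fold above PD30 (1.67 ± 0.19, adjusted p = 0.00173) and overlapping Nutlin (0.08 ± 0.21, adjusted p = 0.779). PD24, at 8.86, 11.2 and 6.16 CPM, and N+PD24, at 7.50, 16.4 and 20.4 CPM, overlapped (0.79 ± 0.32, adjusted p = 0.0741, or 0.0107 with the replicate block). ADAMTS12 went from 42.2 ± 2.01 CPM in DMSO to 51.8 ± 1.77 CPM in Nutlin (0.42 ± 0.09, adjusted p = 0.00307). Its smaller differences in PD30 against DMSO (0.23 ± 0.08, adjusted p = 0.0484) and in N+PD24 against PD24 (0.36 ± 0.12, adjusted p = 0.0380) were called but lost, the first without DMSO replicate 1, 2 or 3 or PD30 replicate 1, 2 or 3 at an adjusted p of up to 0.130 and with no filter on low counts at 0.0901, the second without PD24 replicate 1, 2 or 3 or N+PD24 replicate 1, 2 or 3 at an adjusted p of up to 0.119, with no filter on low counts at 0.0612 and with scaling by total counts at 0.152.

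ADAMTS13, the protease that cleaves von Willebrand factor (chr9:136279478-136324524, plus strand, hg19), was higher with either drug. It was at 1.15, 1.08 and 1.13 CPM in DMSO and above that in all Nutlin libraries, at 1.41, 2.36 and 3.98 CPM (1.31 ± 0.33, adjusted p = 0.00758). PD30 gave 2.45, 2.67 and 2.73 CPM (1.21 ± 0.18, adjusted p = 0.000473), and PD24 1.43, 2.19 and 1.79 CPM (0.70 ± 0.23, adjusted p = 0.0401), a call lost without DMSO replicate 1, 2 or 3 or PD24 replicate 2 or 3 at an adjusted p of up to 0.123, with no filter on low counts at 0.0523 and with DESeq2 at 0.0766. N+PD30 was highest, at 4.64, 3.66 and 5.04 CPM, above every PD30 library (0.84 ± 0.18, adjusted p = 0.0209), a call lost without PD30 replicate 1, 2 or 3 at an adjusted p of up to 0.0917. Against Nutlin the groups overlapped (0.75 ± 0.32, adjusted p = 0.0741). N+PD24, at 1.39, 2.52 and 3.18 CPM, overlapped both PD24 (0.39 ± 0.24, adjusted p = 0.233) and Nutlin (-0.02 ± 0.31, adjusted p = 0.975).

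ADAMTS16, which can cleave fibronectin (chr5:5140443-5320417, plus strand, hg19), depended on the PD0332991 schedule. It was at 10.3, 11.0 and 12.9 CPM in DMSO, rose to 15.8, 19.1 and 21.7 CPM in PD24 (0.75 ± 0.15, adjusted p = 0.00508) and fell to 6.92, 8.12 and 9.08 CPM in PD30 (-0.52 ± 0.15, adjusted p = 0.0155), with no overlap among the 3 groups. The second call was lost without PD30 replicate 1 at an adjusted p of up to 0.0604. PD30 was 2.40-fold lower than PD24 (-1.26 ± 0.17, adjusted p = 0.00104). Nutlin, at 10.5, 11.4 and 17.9 CPM, overlapped DMSO (0.34 ± 0.19, adjusted p = 0.162). N+PD30, at 9.13, 8.37 and 7.31 CPM, was below every Nutlin library (-0.72 ± 0.21, adjusted p = 0.0170, lost without Nutlin replicate 3 or N+PD30 replicate 2 at an adjusted p of up to 0.0728). N+PD24, at 15.9, 17.3 and 18.5 CPM, overlapped Nutlin (0.47 ± 0.18, adjusted p = 0.0702, or 0.00246 with the replicate block).

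The procollagen N-propeptidases ADAMTS2, ADAMTS3 and ADAMTS14 did not move as one. ADAMTS2 rose with Nutlin from 11.5 ± 1.48 to 20.1 ± 2.73 CPM (0.92 ± 0.14, adjusted p = 0.000465) and from 14.4 ± 0.587 CPM in PD24 to 21.2 ± 5.50 CPM in N+PD24 (0.65 ± 0.17, adjusted p = 0.0138, lost without N+PD24 replicate 3 at an adjusted p of up to 0.0590 and with scaling by total counts at 0.0531). ADAMTS3 fell from 13.6 ± 0.667 CPM in DMSO to 8.37 ± 1.80 CPM in PD24 (-0.68 ± 0.16, adjusted p = 0.00943) and 9.46 ± 1.05 CPM in PD30 (-0.54 ± 0.12, adjusted p = 0.00526). Its fall in Nutlin to 9.91 ± 0.997 CPM (-0.33 ± 0.13, adjusted p = 0.0488) was lost without DMSO replicate 1, 2 or 3 or Nutlin replicate 2 or 3 at an adjusted p of up to 0.156, with the replicate number as a block at 0.0655, with RLE size factors at 0.0618 and with DESeq2 at 0.0615. N+PD30, at 6.64 ± 0.919 CPM, was below Nutlin (-0.62 ± 0.17, adjusted p = 0.0108, lost without N+PD30 replicate 2 at an adjusted p of up to 0.0634). ADAMTS14 was close to 1 CPM and was called in N+PD24 alone, at 1.75 ± 0.305 CPM against 0.960 ± 0.214 in PD24 (0.73 ± 0.18, adjusted p = 0.0102) and 1.10 ± 0.0427 in Nutlin (0.54 ± 0.16, adjusted p = 0.0268), the latter being lost without Nutlin replicate 1, 2 or 3 or N+PD24 replicate 1 or 3 at an adjusted p of up to 0.0901 and with no filter on low counts at 0.0571. With the replicate block the adjusted p of ADAMTS14 against Nutlin was 0.00881.

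Set side by side, the Nutlin responses of these genes with and without PD0332991 read as follows. The log2 fold change of MMP25 was 2.74 ± 0.45 without the inhibitor, 0.72 ± 0.38 with PD30 and 2.03 ± 0.19 with PD24. For ADAMTS7 the values were 1.36 ± 0.26, 1.67 ± 0.19 and 0.79 ± 0.32 in the same order. MMP14 gave 0.58 ± 0.11, 0.71 ± 0.14 and 0.36 ± 0.20. ADAMTS2 gave 0.92 ± 0.14, 0.54 ± 0.15 and 0.65 ± 0.17. The comparisons with PD24 are on the log2(CPM + 0.5) scale, which lowers the values of MMP25. Of 13 genes called higher in Nutlin over DMSO (all genes, 26.6%) and 4 in N+PD30 over PD30 (8.84%), ADAMTS7, ADAMTS13 and MMP14 were in both lists. With the 9 called higher in N+PD24 over PD24 (all genes, 17.0%) the first list shared ADAMTS2, ADAMTS6, ADAMTS12, ADAMTS17, ADAMTS18, MMP25, TIMP1 and TIMP2. The overlaps over all genes are not given here, so the sizes of these overlaps cannot be compared. A replicate block in the comparisons under PD0332991 added ADAMTS7, MMP2 and MMP14 to the genes shared with N+PD24 (all genes called with the block, 52.4%). It added ADAMTS2, MMP24 and TIMP1 to those shared with N+PD30 (29.0%). Apart from ADAMTS17 with PD30 and ADAMTS18 with PD24, no tested family gene showed a called difference between these responses without the replicate block, so the lists alone do not establish that the responses differ. Both of those calls were lost in most fits without 1 library, and ADAMTS18 passed the filter through groups in which it was high.

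**Figure D5:**
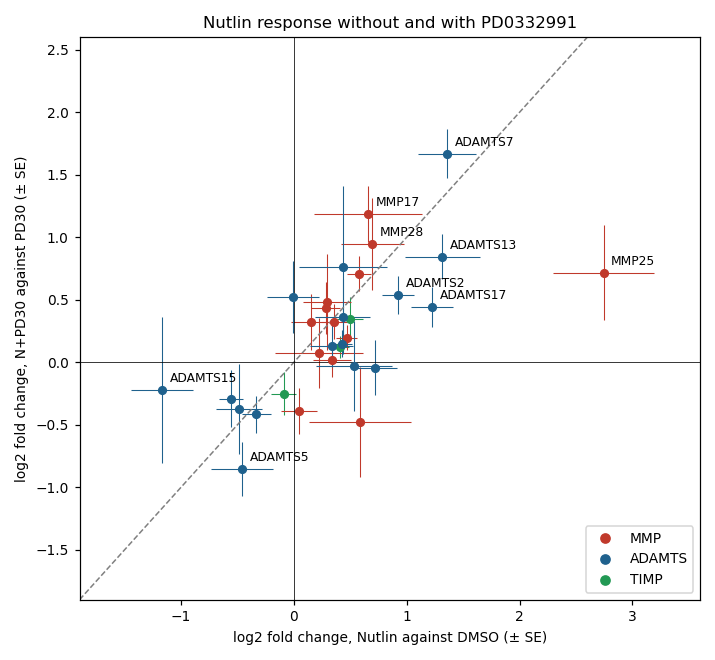
The log2 fold change (± SE) of Nutlin over DMSO (horizontal) against that of N+PD30 over PD30 (vertical) for the genes tested in both, coloured by family, with the dashed line where both are equal. MMP25 (2.74 ± 0.45 and 0.72 ± 0.38) and ADAMTS17 (1.23 ± 0.19 and 0.44 ± 0.16) lie below the line, and ADAMTS7 and MMP17 above it.

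Other genes of the same pathway were taken from lists. Of 21 genes that activate or inhibit matrix proteases, 20 were tested in Nutlin against DMSO and 10 were higher, as were 26.6% of all genes (median log2 0.51, all genes 0.03). Among them was SPOCK2, a matrix proteoglycan (2.71 ± 0.29, adjusted p = 4.50e-05). In PD24 against DMSO, 6 of 18 were higher, against 17.5% of all genes (median 0.42, all genes 0.02), and in PD30 2 of 18 were higher and 4 lower, against 22.9% and 25.4% of all genes. PLAUR, the urokinase receptor, and urokinase (PLAU) itself were lower in PD30 than in PD24 (-1.30 ± 0.13, adjusted p = 0.000467 and -1.47 ± 0.19, adjusted p = 0.000955). PCSK7, a proprotein convertase, rose in PD24 (0.91 ± 0.12, adjusted p = 0.000489), while TFPI2 fell in PD30 (-1.27 ± 0.32, adjusted p = 0.00971).

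Of 12 transcription factors of the AP-1 and ETS families and RUNX2, 7 were lower in PD30 than in DMSO and 6 lower and 2 higher in PD30 than in PD24 (medians -0.54 and -0.66, all genes 0.00 and -0.02). Of all genes 25.4% were lower in PD30 than in DMSO, and 12.9% lower and 12.2% higher in PD30 than in PD24. JUN was 119.8 ± 21.5 CPM in PD24 and 37.8 ± 5.39 CPM in PD30, against 74.2 ± 14.7 CPM in DMSO (-1.70 ± 0.17, adjusted p = 0.000381 for PD30 against PD24). FOSB was also lower in PD30 than in PD24 (-1.45 ± 0.20, adjusted p = 0.00132), and JUND was higher (1.17 ± 0.27, adjusted p = 0.0122). Of the substrates, 7 of 7 tested rose with Nutlin (all genes, 26.6%), with a median of 1.22 in log2, including aggrecan, ACAN (2.50 ± 0.26, adjusted p = 3.96e-05), and von Willebrand factor, VWF (1.85 ± 0.23, adjusted p = 0.000111). Versican, VCAN, fell in PD24 (-1.77 ± 0.23, adjusted p = 0.000419) and PD30 (-2.54 ± 0.15, adjusted p = 1.29e-06), whereas VWF rose in both (1.46 ± 0.24, adjusted p = 0.00173 and 1.90 ± 0.20, adjusted p = 5.91e-05). Of the ADAM sheddases, 7 of 9 rose with Nutlin, against the same 26.6% of all genes, and ADAM19 rose in PD24 (1.67 ± 0.09, adjusted p = 1.65e-06) and was lower in PD30 than in PD24 (-1.54 ± 0.10, adjusted p = 0.000104). Of 7 ADAMTS-like proteins tested, which lack the protease domain, 4 rose with Nutlin (all genes, 26.6%), led by PAPLN (2.03 ± 0.17, adjusted p = 1.03e-05), and ADAMTSL1 was lower in PD30 than in PD24 (-1.83 ± 0.21, adjusted p = 0.000633).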

How the data were processed

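RNA was sequenced from 18 libraries of SJSA-1 cells, 3 in each of 6 groups. The authors aligned reads to hg19 by TopHat and Bowtie2, HTSeq 0.6.0 with its reverse-strand setting gave a count for each gene symbol, and these raw read counts were deposited for 5 groups. For N+PD24 the deposited values are a signal, namely gene counts that the authors divided by 1 size factor per library. Whole reads were recovered for 100.0% of these values, within 0.05 reads. CPM was each value over the total of its own column. The authors' tables of normalized counts and of their own DESeq2 comparisons (fold changes and p-values) were not used. 28 rows have a date for a name.

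The members and lists were chosen with earlier results of these data known. Groups with counts were compared by edgeR 4.0.16 (R 4.3.3; glmQLFit and glmQLFTest, TMM, filterByExpr), and the SE of a log2 fold change was its size over the square root of F. Comparisons with N+PD24 used limma 3.58.1 (trend on, robust off) on log2(CPM + 0.5), after filterByExpr. In these fits CPM was taken on TMM-scaled totals, not on plain column totals. P-values were adjusted by Benjamini-Hochberg over all genes tested, and the adjusted p was called below 0.05. The steps were tested on simulated data. Values in every library are given for TIMP1 to TIMP3 and for genes that reached a mean of 1 CPM in a group and were called with a log2 fold change over 1 in either direction. Of each other list, at most the 4 called genes with the largest fold change per comparison are named. Some genes of these lists are not reported here.

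Exon lengths and overlaps came from an hg19 gene annotation (GENCODE). Replicate numbers were taken to pair libraries where every same-numbered pair deviated together (r over 0.1 across 13559 genes). This held for PD30 against PD24 (lowest r 0.304), N+PD30 against PD30 (0.204), N+PD24 against Nutlin (0.45) and N+PD24 against PD24 (0.211). Every comparison was refitted with the number as a block, no filter, total counts as scaling, a log2 fold change over 1, and without each library. Those fitted by edgeR were also refitted with RLE size factors and by DESeq2 1.42.0, and those fitted by limma with pseudocounts of 0.1 and 1 CPM and by edgeR on the recovered reads. On the recovered reads edgeR called 2754 genes higher and 2729 lower in N+PD24 against Nutlin, and 2597 higher and 3116 lower in N+PD24 against PD24.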

Additional observations from a re-analysis of the deposited data

Results flagged for a closer look

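The Nutlin response of ADAMTS17 differed between cells with and without PD30, by -0.73 on the log2 scale in a test of the difference itself (edgeR interaction term, adjusted p = 0.0434, 3 libraries in each of 4 groups). The call was lost in 11 of the 12 fits that left out 1 library, at an adjusted p of up to 0.0973, and also with no filter on low counts (0.0635) and with scaling by total counts (0.0506). All 3 Nutlin libraries were above all DMSO libraries, and all 3 N+PD30 libraries above all PD30 libraries.

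The Nutlin response of ADAMTS18 differed between cells with and without PD24, by 1.21 on the log2(CPM + 0.5) scale (limma interaction term, adjusted p = 0.0470, 3 libraries in each of 4 groups). The call was lost with edgeR on the recovered reads (adjusted p = 0.565), with a pseudocount of 0.1 CPM (0.187), with no filter on low counts (0.0522), with scaling by total counts (0.0685) and in 10 of the 12 fits that left out 1 library (up to 0.149). ADAMTS18 had at most 22 counts in any library of the groups other than N+PD24 and passed the filter through the Nutlin and N+PD24 libraries.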

How the results depend on the processing

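Of 95 calls of these genes in the 10 comparisons, 61 kept their direction and an adjusted p under 0.05 in every refit but that with a fold threshold, 34 lost it without at least 1 library, 16 in another refit, and no call changed direction. With a log2 fold change over 1 required, 6 genes were called in Nutlin against DMSO, 6 in PD30 against DMSO, 7 in PD24 against DMSO, 6 in N+PD30 against Nutlin, 2 in N+PD30 against PD30, 8 in N+PD24 against Nutlin, 3 in N+PD24 against PD24 and 0 for the interaction of Nutlin with PD30.

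With the replicate block, calls numbered 7 in PD30 against PD24, 9 in N+PD30 against PD30 and 23 in N+PD24 against Nutlin, where the numbers pair the libraries. They numbered 3 for the interaction of Nutlin with PD30 (all genes, 25.6%) and 2 for that with PD24 (2.64%). The numbers do not pair the Nutlin and DMSO libraries that both interactions include. The block added MMP15, MMP3 and TIMP2 in the first comparison, ADAMTS2, ADAMTS3, MMP24 and TIMP1 in the second, and ADAMTS1, ADAMTS7, ADAMTS9, ADAMTS16, MMP15, MMP16, MMP19 and MMP25 in the third, and ADAMTS5, ADAMTS7, MMP2, MMP11 and MMP14 in N+PD24 against PD24. In the comparisons where the numbers do not pair, such as Nutlin against DMSO (lowest r -0.278), the block lost 1 call, that of ADAMTS3, and added ADAMTS5, ADAMTS8 and ADAMTS9. It added 5 calls in PD30 against DMSO, 3 in PD24 against DMSO and 2 in N+PD30 against Nutlin. Over all genes, the block moved calls from 3468 higher and 3839 lower to 3921 and 4176 in PD30 against DMSO. In Nutlin against DMSO it moved them from 4198 and 4416 to 4234 and 4338. For PD24 against DMSO and N+PD30 against Nutlin the blocked counts over all genes are not given here. For the interaction of Nutlin with PD30, calls numbered 2 with RLE size factors, 3 with DESeq2 and 0 with total counts. For that with PD24, they numbered 0 with no filter, with total counts, with a pseudocount of 0.1 CPM and with edgeR on the recovered reads, and 2 with a pseudocount of 1 CPM. Over all genes, edgeR on the recovered reads called 76 higher and 40 lower, against 129 and 106 with limma. Counts over all genes under the other scaling, filter, pseudocount and DESeq2 refits of both interactions are not given here.

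Without each library in turn, calls ranged from 15 to 16 in Nutlin against DMSO, 10 to 13 in PD30 against DMSO, 9 to 13 in PD24 against DMSO, 3 to 5 in PD30 against PD24, 10 to 17 in N+PD30 against Nutlin, 1 to 7 in N+PD30 against PD30, 11 to 14 in N+PD24 against Nutlin, 7 to 16 in N+PD24 against PD24, 0 to 2 for the interaction with PD30 and 0 to 1 for that with PD24. In the same refits of Nutlin against DMSO, calls over all genes ranged from 3399 to 4195 higher and from 3722 to 4466 lower. In PD30 against DMSO they ranged from 2689 to 3380 higher and from 3209 to 3755 lower. For the other comparisons these counts over all genes are not given here. Scaling by total counts moved the median of all genes from 0.03 to -0.10 in Nutlin against DMSO, where calls went from 4198 higher and 4416 lower to 3151 and 5439. In N+PD24 against PD24 it went from 0.03 to -0.09, with calls from 2636 and 3121 to 1829 and 4112, and in N+PD24 against Nutlin calls went from 2725 and 2748 to 2179 and 3257. Causes of these changes were not tested.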
